A study of Mus musculus with 9 samples.

Results

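Myc and 31 genes of ribosome biogenesis were followed in the stromal vascular fraction (SVF) of mouse inguinal subcutaneous fat over the first days after surgical priming. The 32 genes form a group given by name, and their probe sets were those whose array annotation gives exactly 1 gene symbol equal to the gene. Of the 32 genes, 31 had such a probe set, Npm3 being the exception. Of the 31, 30 passed a filter on detection, among 11796 genes tested and 18193 genes named on the array. All 30 were called present on all 9 arrays. Rrp9, a protein specific to the U3 small nucleolar RNA, did not pass.

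The SVF is the pellet left by enzymatic digestion of fat once its floating fat cells are discarded. Fibroblast-like stroma, vessel cells and leukocytes all occur in it. RNA was taken from wild type Balb/c mice aged 10 weeks on day 1 and day 3 after the procedure and on day 0, from 3 individual mice a day, each mouse on 1 array. The labels describe surgical injury of the inguinal fat, whereas priming in the study's methods joins injury with ligation of the artery feeding the fat. Day 0 is taken here as the state without priming. No group carries a transgene or a drug treatment, and every mouse was used on 1 day only. The arrays include no sham-operated mice on days 1 and 3. Priming therefore cannot be told apart from time, anesthesia and the skin operation in these comparisons.

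MYC is a transcription factor that binds DNA as a dimer with MAX, mainly at the E-box word CACGTG, and it is known for raising the transcription of genes for ribosome production and growth. MXD and MNT proteins also pair with MAX and repress the same kind of gene. Ribosome production starts in the nucleolus, where RNA polymerase I makes 1 long precursor RNA. Small nucleolar ribonucleoproteins (snoRNPs) then modify that precursor, and separate sets of factors trim it, fold it and export it as the small and the large subunit.

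Each probe set has a MAS5 signal, a linear brightness that the authors scaled so that every array had a trimmed mean of 500. Signals are compared between days for 1 probe set and not between genes, since probes differ in how brightly they bind. Changes below are log2 differences ± the standard error of the limma fit. A gene was called where the p-value adjusted by Benjamini-Hochberg over the 11796 genes was under 0.05. Present calls numbered 25677 to 26299 of 45101 probe sets per array on day 0, 24106 to 25557 on day 1 and 25069 to 25292 on day 3, so every day 0 mouse had more of them than any later mouse. The median change of all genes was −0.13 for day 1 against day 0, −0.03 for day 3 against day 0 and 0.09 for day 3 against day 1. Centring each array on its median log2 signal moved the first of these to 0.02.

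The makeup of the SVF moved over the same days. The summed signals of 10 named neutrophil markers lay between 1864 and 2096 on day 0, between 42686 and 76428 on day 1 and between 9629 and 21406 on day 3, and 1 of them, Camp, was called absent on all 9 arrays. The sums of 10 T cell markers were 26999 to 32415 on day 0, 8773 to 24097 on day 1 and 10813 to 17408 on day 3, with Cd4 absent on all 9 arrays. For 8 B cell markers the sums were 14044 to 22232, 5934 to 13553 and 4374 to 8821 on the same days. Sums of 13 monocyte and macrophage markers were 69631 to 77144 on day 0, 104336 to 123284 on day 1 and 95700 to 112479 on day 3. For 10 fibroblast and adipose progenitor markers they were 154291 to 160391 on day 0. On day 1 these sums were 126747 to 144155, and on day 3 they were 134406 to 142318. Every mouse of days 1 and 3 was thus below every day 0 mouse, and against day 0, 3 of these 10 genes were called lower and 0 higher on day 1, and 4 lower and 1 higher on day 3. In such bulk samples, fewer cells of a type and less RNA of a gene per cell cannot be told apart.

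Myc was lower on both days after priming. Its signals were 6220, 5256 and 6434 on day 0, 3203, 3462 and 5183 on day 1 and 4133, 4277 and 3973 on day 3. Every mouse of day 1 and of day 3 was below every mouse of day 0, the third mouse of day 1 by the smallest margin. The change was −0.62 ± 0.16 for day 1 against day 0 (adjusted p = 0.0162) and −0.53 ± 0.16 for day 3 against day 0 (adjusted p = 0.0334). These are signals 1.54 times lower on day 1 and 1.44 times lower on day 3 than on day 0. Day 3 and day 1 overlapped, with a change of 0.10 ± 0.16 (adjusted p = 0.722). The day 1 call was lost without day 0 replicate 1 or 3 or without day 1 replicate 1 or 2, with adjusted p-values of 0.052 to 0.0654. The day 3 call was lost without day 0 replicate 1 or 3 or without any 1 of the 3 day 3 mice, with adjusted p-values of 0.0762 to 0.109. T and B cell markers were lower on the same days, and their part in the Myc values was not tested.

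**Figure D1:**
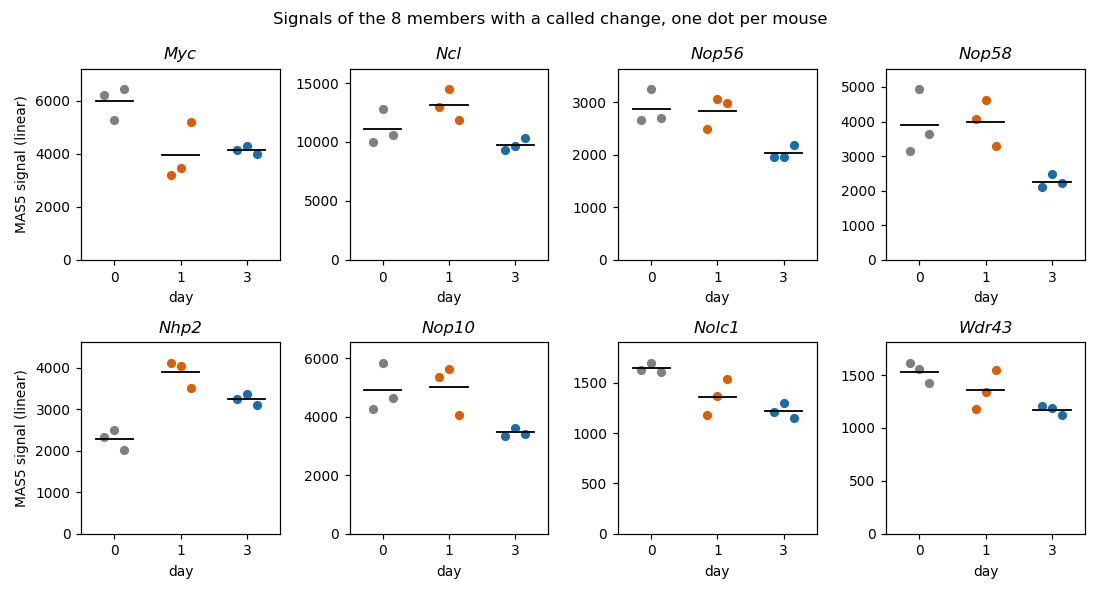
MAS5 signals (linear, axis from 0) of the 8 genes with a called change in at least 1 comparison, by day 0, 1 and 3; each dot is 1 mouse and each line the mean of 3 mice. Myc lay between 3203 and 5183 on day 1 and between 5256 and 6434 on day 0, Nhp2 was higher on days 1 and 3 than on day 0, and Nop58, Nop56, Nop10, Nolc1 and Wdr43 had their lowest mean on day 3.

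Few of the ribosome biogenesis genes were called on day 1. Of the 30 genes, 1 was called lower (Myc) and 1 was called higher (Nhp2) for day 1 against day 0, while 28.6% of all genes were called, 10.7% higher and 17.9% lower. The median change over the 30 genes was 0.07, and the changes ran from −0.62 to 0.77. The 95% intervals of the 28 genes that were not called all lay within a change of 1 in either direction, from a lowest bound of −0.55 (Nolc1) to a highest of 0.79 (Wdr75). For 20 of the 28 the interval lay within 0.5. In 4 genes all mice of day 1 lay above all mice of day 0 and in 2 below, which 13.8% and 26.1% of all genes did (40% in either direction). After median centring of the arrays, 7 genes were called higher (Ncl, Nhp2, Nop16, Npm1, Pa2g4, Pes1 and Wdr75) and Myc was again called lower, and the median over the 30 genes was 0.22. That centring also turned the split over all genes, which was 1268 higher and 2110 lower as fitted, into 1809 higher and 1118 lower; with quantile normalization it was 1382 and 1529. Without day 1 replicate 3, 4 genes were called higher and 2 lower, and without day 0 replicate 2, 3 were called higher and 1 lower. Without day 0 replicate 1 or 3 or day 1 replicate 1 or 2, none was called lower.

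On day 3 the calls were mostly downward. For day 3 against day 0, 6 of the 30 genes were called lower (Myc, Nop56, Nop58, Nop10, Nolc1 and Wdr43) and 1 higher (Nhp2), against 26.1% of all genes called, 12.5% lower and 13.6% higher. The median over the 30 genes was −0.00, with changes from −0.76 to 0.51. The 6 lower genes make 20.0% of the 30. In 9 genes all mice of day 3 lay below all mice of day 0 and in 4 above, which 24.6% and 22.6% of all genes did (47.2% in either direction). Nop56 and Nop58 hold the box C/D complex together, Nop10 and Nhp2 are parts of the box H/ACA complex, and Nolc1 is a chaperone for both kinds. The other measured genes of these complexes, Fbl, Dkc1 and Gar1, were not called. The 23 genes not called had 95% intervals from −0.56 (Gnl3) to 0.69 (Noc4l). With median centring 4 genes were called lower (Myc, Nolc1, Nop56 and Nop58) and 2 higher (Nhp2 and Nop16). Leaving out single arrays changed the number called lower to between 1 (without day 3 replicate 1) and 6. It was 2 without day 0 replicate 2 or 3 or day 3 replicate 2 or 3, and 3 without day 0 replicate 1.

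Between the primed days, 4 of the 30 genes were called lower for day 3 against day 1 (Ncl, Nop56, Nop58 and Nop10) and 0 higher, against 14.2% of all genes called, 4.54% lower and 9.66% higher. At an unadjusted p under 0.05, 8 of the 30 genes were lower and 1 higher in this comparison. Over all 11796 genes, 1246 were lower and 2422 higher at that limit. The median over the 30 genes was −0.15, and the 26 genes not called had 95% intervals from −0.71 (Gnl3) to 0.74 (Noc4l). In 11 of the 30 genes all 3 mice of day 3 lay below all 3 of day 1, which 11.5% of all genes did, and in 1 gene, Noc4l, they lay above, which 23.4% did (35% in either direction). After median centring 6 genes were called lower (Fbl, Gnl3, Ncl, Nop10, Nop56 and Nop58), and over all genes 698 were higher and 752 lower, against 1140 and 536 as fitted. None of the 30 was called lower without day 3 replicate 1, 1 without day 1 replicate 2 or day 3 replicate 2, and 2 without day 1 replicate 1. Without day 1 replicate 3, 5 were called lower and 1 higher.

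**Figure D2:**
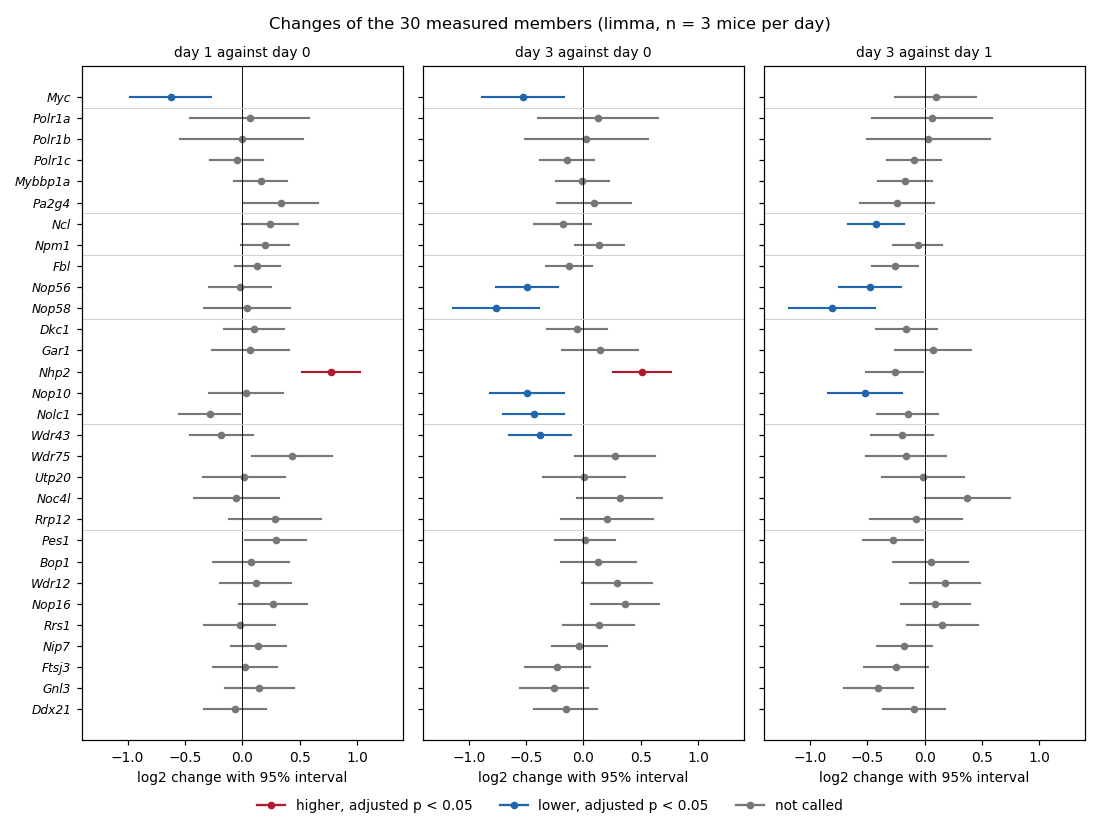
Log2 changes (dots) with 95% intervals (lines) of the 30 measured genes for day 1 against day 0, day 3 against day 0 and day 3 against day 1, from limma with 3 mice per day. Grey rules separate the roles. From the top these are Myc, RNA polymerase I and its regulators, Ncl and Npm1, box C/D, box H/ACA, small subunit and large subunit genes. Called changes are coloured; most intervals cross 0, Nhp2 stands to the right on both primed days, and Nop58 is farthest to the left on day 3, at −0.76.

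The box C/D snoRNPs carry guide RNAs that direct methylation of ribosomal RNA by fibrillarin (Fbl), on a scaffold of Nop56 and Nop58. Nop58 had signals of 3142, 4940 and 3646 on day 0, 4071, 4632 and 3281 on day 1 and 2099, 2472 and 2226 on day 3. The 3 mice of day 3 were below all 6 others, whereas days 1 and 0 overlapped. The change was −0.76 ± 0.17 for day 3 against day 0 (adjusted p = 0.00757), which was called without any 1 array, and −0.81 ± 0.17 for day 3 against day 1 (adjusted p = 0.0105), which was lost without day 3 replicate 1 (adjusted p = 0.0537). For day 1 against day 0 the change was 0.04 ± 0.17.

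Nop56 had signals of 2670, 3254 and 2700 on day 0, 2489, 3056 and 2980 on day 1 and 1967, 1957 and 2189 on day 3. Here too the mice of day 3 lay below all others. The change was −0.49 ± 0.12 for day 3 against day 0 (adjusted p = 0.0132) and −0.48 ± 0.12 for day 3 against day 1 (adjusted p = 0.0257). The first call was lost without day 0 replicate 2 or day 3 replicate 1 or 2 (adjusted p of 0.0524 to 0.0563), and the second without day 1 replicate 2 or day 3 replicate 1 or 2 (0.0905 to 0.103). A further probe set of Nop56 gave −0.53 for day 3 against day 0.

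Fbl, the methyltransferase itself, had signals of 3666, 3793 and 3482 on day 0, 4043, 4017 and 3918 on day 1 and 3397, 3366 and 3258 on day 3. Its day 3 mice also lay below the mice of both other days, by a narrow margin. The changes of −0.13 ± 0.09 for day 3 against day 0 (adjusted p = 0.332) and −0.26 ± 0.09 for day 3 against day 1 (adjusted p = 0.0795) were not called. The other probe set of Fbl gave −0.36 ± 0.10 for day 3 against day 1 (adjusted p = 0.0379 over probe sets). That comparison was called with median centring, with averaged probe sets and without probe sets that may share sequence. It was also called with an ordinary ANOVA over days after adjustment, so the call depends on these choices. Rrp9, which did not pass the filter, had signals of 443, 477 and 460 on day 0, 533, 570 and 481 on day 1 and 402, 513 and 419 on day 3, and was called present on 2, 1 and 0 arrays of these days.

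The box H/ACA snoRNPs convert uridine of ribosomal RNA to pseudouridine through dyskerin (Dkc1), with Gar1, Nhp2 and Nop10 as its partners, and the same proteins sit in telomerase. Within this complex 1 gene was higher and 1 lower on day 3. Nhp2 had signals of 2339, 2492 and 2009 on day 0, 4114, 4045 and 3507 on day 1 and 3238, 3375 and 3091 on day 3. All mice of days 1 and 3 were above all mice of day 0. The change was 0.77 ± 0.11 for day 1 against day 0 (adjusted p = 0.000715) and 0.51 ± 0.11 for day 3 against day 0 (adjusted p = 0.00763), and both were called without any 1 array. The ID of this probe set marks it as one that may share sequence with other transcripts. The other probe set of Nhp2 gave 0.68 ± 0.15 for day 1 (adjusted p = 0.00884 over probe sets) and 0.25 ± 0.15 for day 3 (adjusted p = 0.269), so the day 3 rise rests on the first probe set.

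Nop10 had signals of 4250, 5840 and 4642 on day 0, 5361, 5647 and 4044 on day 1 and 3348, 3625 and 3417 on day 3. The mice of day 3 lay below all others, and days 1 and 0 overlapped. The change was −0.49 ± 0.15 for day 3 against day 0 (adjusted p = 0.0305) and −0.52 ± 0.15 for day 3 against day 1 (adjusted p = 0.0373). The further probe set gave −0.50 and −0.57 for the same comparisons. The first call was lost with median centring and without day 0 replicate 2 or 3 or any 1 day 3 mouse (adjusted p of 0.0606 to 0.112 without these mice). The second was lost with quantile normalization and without day 0 replicate 3, day 1 replicate 1 or 2 or any 1 day 3 mouse (0.0543 to 0.133).

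Dkc1 changed by 0.10 ± 0.12 for day 1 against day 0 and −0.06 ± 0.12 for day 3 against day 0, and Gar1 by 0.07 ± 0.15 and 0.14 ± 0.15; none of these was called. Nolc1, also known as Nopp140, had signals of 1630, 1696 and 1608 on day 0, 1176, 1364 and 1535 on day 1 and 1210, 1296 and 1153 on day 3. Both primed days lay below day 0 in every mouse. For day 3 against day 0 the change was −0.43 ± 0.12 (adjusted p = 0.0229) and for day 1 against day 0 it was −0.28 ± 0.12 (adjusted p = 0.0992). The day 3 call was lost without any 1 day 0 mouse or without day 3 replicate 1 or 3 (adjusted p of 0.0519 to 0.0775). The day 1 change was called without day 1 replicate 3 (adjusted p = 0.0295). A further detected probe set of Nolc1 gave −0.59 ± 0.18 for day 1 against day 0 (adjusted p = 0.0338 over probe sets). For day 3 against day 0 it gave −0.67 ± 0.18 (adjusted p = 0.0204). Another gave −0.13 ± 0.16 for day 1 and −0.32 ± 0.16 for day 3 (adjusted p of 0.58 and 0.18). The direction was thus the same in all of them, but the calls on these days depend on the probe set.

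The lower signals of Nop56, Nop58, Nop10 and Nolc1 on day 3 ran beside lower lymphocyte markers and higher neutrophil and macrophage markers than on day 0, as summed above, and the part of these cell types in them was not tested. Of the marker genes tested, 4 of 9 T cell genes and 5 of 7 B cell genes were called lower for day 3 against day 0, as 12.5% of all genes were. For day 3 against day 1, 0 of the 9 T cell genes and 0 of the 7 B cell genes were called by limma (0 and 1 at an unadjusted p under 0.05), and the sums of both days overlapped. Of 8 neutrophil genes, 0 were called higher and 3 lower in that comparison. Of 13 monocyte and macrophage genes, 2 were higher and 3 lower. Over all genes, 9.66% were higher and 4.54% lower.

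Promoters are shown for Nop56, Nop58, Nop10 and Nolc1, called lower for day 3 against day 0, and for Nhp2, called higher. Nolc1 was already below day 0 in every mouse of day 1. Myc and Wdr43, also called lower for day 3, are not among these genes, and Wdr43 follows below. Of the 32 genes, 26 have a RefSeq promoter window (build GRCm38.p6, 250 bases before to 50 after the gene start). Capitals mark, on either strand, 3 words. The first is the E-box, CACGTG. The second is a variant of the E-box, CACGCG. The third is the core of sites for ETS factors, CCGGAA. No such words overlap in the stretches shown. Each line gives the 150 bases before the start in the direction of the gene.
Nop56, chr2:130274262-130274411, plus strand: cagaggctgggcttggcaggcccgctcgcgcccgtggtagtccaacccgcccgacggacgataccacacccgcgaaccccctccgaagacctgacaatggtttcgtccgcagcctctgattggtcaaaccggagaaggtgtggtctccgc
Nop58, chr1:59684856-59685005, plus strand: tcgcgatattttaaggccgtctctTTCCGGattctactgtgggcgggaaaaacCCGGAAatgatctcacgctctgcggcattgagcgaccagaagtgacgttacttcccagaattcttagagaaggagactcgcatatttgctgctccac
Nop10, chr2:112261776-112261925, plus strand: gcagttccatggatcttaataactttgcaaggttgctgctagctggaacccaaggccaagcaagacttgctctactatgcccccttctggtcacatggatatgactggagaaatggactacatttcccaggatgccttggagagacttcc
Nolc1, chr19:46075697-46075846, plus strand: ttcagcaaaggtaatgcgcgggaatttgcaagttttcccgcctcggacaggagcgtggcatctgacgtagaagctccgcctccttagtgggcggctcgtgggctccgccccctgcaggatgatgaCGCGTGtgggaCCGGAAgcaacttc
Nhp2, chr11:51619623-51619772, plus strand: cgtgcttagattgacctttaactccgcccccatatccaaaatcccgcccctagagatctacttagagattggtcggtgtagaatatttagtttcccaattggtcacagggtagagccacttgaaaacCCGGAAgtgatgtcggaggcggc
The 4 of these genes that were called lower share none of the 3 words in these stretches, since Nop56 and Nop10 hold none of them. Nop58 and Nolc1 share CCGGAA, which Nhp2, the gene that rose, holds too. In the whole windows of 300 bases, Nop10, Nolc1 and Nhp2 hold CACGCG, for Nop10 and Nhp2 outside the stretch shown.

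Over the whole 300-base windows, the E-box CACGTG was found in 4 of the 26 genes (15.4%), in 11.5% of the 9539 tested genes with a window and in 7.15% of all 32851 windows. All 4 lie just after the gene start, the first base of the word being 2 bases from it in Pes1, 17 in Wdr43, 37 in Utp20 and 40 in Mybbp1a. They are shown as the word that MYC and MAX bind, in 30 bases each.
Pes1, chr11:3963965-3963994, plus strand: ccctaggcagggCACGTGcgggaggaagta
Wdr43, chr17:71616220-71616249, plus strand: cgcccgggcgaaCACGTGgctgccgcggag
Utp20, chr10:88826765-88826794, minus strand: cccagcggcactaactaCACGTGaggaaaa
Mybbp1a, chr11:72441347-72441376, plus strand: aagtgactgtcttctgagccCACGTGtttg
Of the 4, Wdr43 was called lower on day 3, and the others were not called in any comparison. The variant CACGCG was found in 9 of the 26 (34.6%, against 19.7% of tested genes and 9.27% of windows) and CCGGAA in 10 (38.5%, against 30.3% and 14.9%). A match of letters is a description and not a bound site.

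RNA polymerase I and its regulators showed no called change in any comparison by limma, with 1 of the 5 genes at an unadjusted p under 0.05, for day 1 against day 0. Polr1a and Polr1b, its largest subunits, changed by 0.06 ± 0.24 and −0.01 ± 0.24 for day 1 against day 0 and by 0.13 ± 0.24 and 0.03 ± 0.24 for day 3 against day 0. Over the 3 comparisons their 95% intervals reached 0.65 and 0.57 upward and −0.46 and −0.54 downward. A second detected probe set of Polr1a disagreed with the one used, at −0.86 ± 0.27 for day 1 against day 0 (adjusted p = 0.0386 over probe sets), so that the direction of Polr1a depends on the probe set. Polr1c, a subunit shared with RNA polymerase III, changed by −0.05 ± 0.11 on day 1 and −0.14 ± 0.11 on day 3 against day 0. Mybbp1a, a nucleolar protein that can repress ribosomal RNA transcription, changed by 0.16 ± 0.11 and −0.01 ± 0.11.

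Pa2g4, a growth-regulated protein of the nucleolus that associates with ribosome precursors, had signals of 2002, 2472 and 1901 on day 0, 2651, 3200 and 2232 on day 1 and 2160, 2403 and 2191 on day 3. Days 1 and 0 overlapped in 1 mouse each, and the change of 0.34 ± 0.15 was not called (adjusted p = 0.105). It was called without day 1 replicate 3 (adjusted p = 0.0234) and with median centring.

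Nucleolin (Ncl) and nucleophosmin (Npm1) are the abundant RNA-binding proteins and histone chaperones of the nucleolus. Ncl had signals of 10005, 12770 and 10559 on day 0, 12981, 14486 and 11892 on day 1 and 9291, 9638 and 10308 on day 3. All mice of day 3 were below all mice of day 1, and day 0 overlapped with both. The change was −0.43 ± 0.11 for day 3 against day 1 (adjusted p = 0.0275), 0.24 ± 0.11 for day 1 against day 0 (adjusted p = 0.122) and −0.18 ± 0.11 for day 3 against day 0 (adjusted p = 0.257). The 4 detected probe sets of Ncl gave −0.43, −0.50, −0.58 and −0.49 for day 3 against day 1. The call was lost without day 1 replicate 1 or 2 or day 3 replicate 1 or 2 (adjusted p of 0.0578 to 0.112). The rise on day 1 was called without day 0 replicate 2 (adjusted p = 0.0402). Npm1 changed by 0.20 ± 0.10 on day 1 and 0.14 ± 0.10 on day 3 against day 0, neither of them called.

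**Figure D3:**
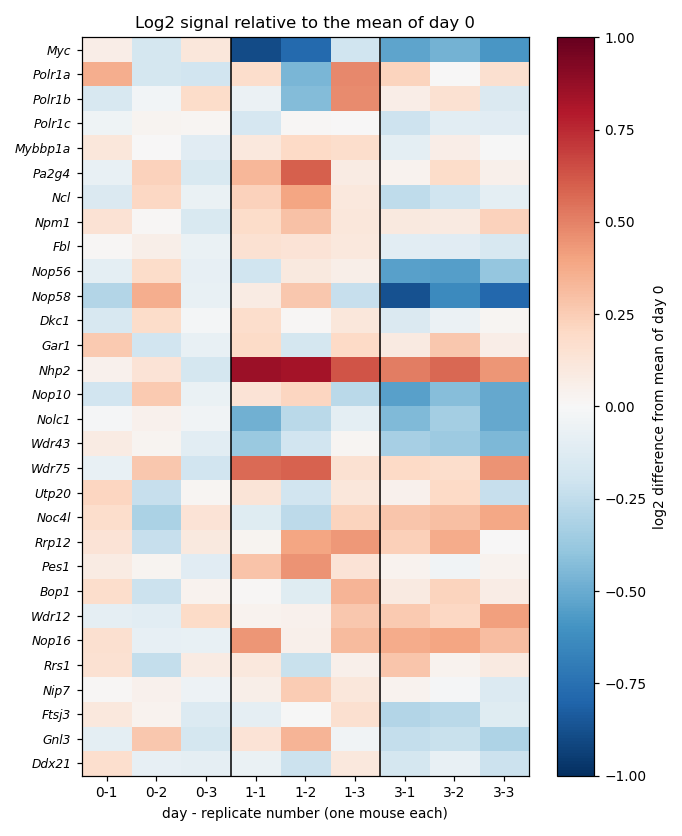
Log2 signal of the 30 genes (rows, by role) in each of the 9 mice (columns, day and replicate number), as the difference from the mean of day 0; red is higher and blue lower, on a scale from −1 to 1. Nhp2 is red in all mice of days 1 and 3, Myc blue in all of them, and Nop56, Nop58 and Nop10 blue in all mice of day 3.

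The genes of small subunit processing varied in direction. Wdr43 and Wdr75 belong to the complex that binds the precursor RNA while it is being made. Wdr43 had signals of 1615, 1556 and 1422 on day 0, 1181, 1338 and 1550 on day 1 and 1211, 1190 and 1121 on day 3. Day 3 lay below day 0 in every mouse, and the change was −0.38 ± 0.12 (adjusted p = 0.0422). The other probe set of Wdr43 gave −0.14 ± 0.13 (adjusted p = 0.464 over probe sets). The call was lost with averaged probe sets (adjusted p = 0.123), with the replicate number as a block, without limma's variance trend, with median centring and without any 1 mouse of day 0 or of day 3, or without day 1 replicate 2 (adjusted p of 0.0504 to 0.119 without these mice). Wdr75 had 1253, 1589 and 1154 on day 0, 1951, 1987 and 1470 on day 1 and 1518, 1489 and 1805 on day 3. Its change of 0.44 ± 0.16 for day 1 against day 0 was the largest of the 28 genes not called in that comparison (adjusted p = 0.0601) and was called without day 0 replicate 2 or day 1 replicate 3 (the lower adjusted p being 0.0123). Its second detected probe set went the other way, at −0.47 ± 0.29 for day 1 and −0.25 ± 0.29 for day 3 against day 0, and with averaged probe sets the day 1 change was −0.02 (adjusted p = 0.941), so the direction of Wdr75 depends on the probe set. Several detected probe sets were available for 20 genes. Their changes had both signs in 11 of these genes for day 1 against day 0 and in 7 for day 3 against day 0. For day 3 against day 1 both signs occurred in 4.

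Noc4l, which takes part in the maturation of the small subunit, had signals of 502, 357 and 487 on day 0, 407, 370 and 519 on day 1 and 536, 545 and 579 on day 3. The mice of day 3 were above all others, opposite to Nop56, Nop58 and Nop10, but the changes of 0.32 ± 0.17 for day 3 against day 0 (adjusted p = 0.19) and 0.37 ± 0.17 for day 3 against day 1 (adjusted p = 0.159) were not called. The last was called without day 1 replicate 3 (adjusted p = 0.0464). Utp20, a large scaffold of the small subunit precursor, changed by 0.02 ± 0.16 and 0.00 ± 0.16 on days 1 and 3 against day 0. Rrp12, needed for export of the precursors, changed by 0.28 ± 0.18 and 0.21 ± 0.18.

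No gene of large subunit processing was called by limma in any comparison, with 1, 1 and 2 of the 9 genes at an unadjusted p under 0.05 in the order of the comparisons above. Pes1, Bop1 and Wdr12 form the PeBoW complex, which is needed to process the precursor of the large subunit. Pes1 had 928, 892 and 812 on day 0, 1068, 1195 and 963 on day 1 and 900, 856 and 899 on day 3. The mice of day 1 lay above all others, with a change of 0.29 ± 0.12 against day 0 (adjusted p = 0.0905) that was called without day 1 replicate 3 (adjusted p = 0.0371). Bop1 changed by 0.08 ± 0.15 on day 1 and 0.13 ± 0.15 on day 3 against day 0, and Wdr12 by 0.12 ± 0.14 and 0.29 ± 0.14. A second detected probe set of Bop1 went the other way, at −0.65 ± 0.30 and −0.24 ± 0.30, and one of Wdr12 gave −0.10 ± 0.29 and −0.19 ± 0.29. The 3 partners of PeBoW were thus not called, with 95% intervals for day 3 against day 0 from −0.25 (Pes1) to 0.60 (Wdr12).

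Nop16, a nucleolar protein of the large subunit precursor, had 620, 524 and 526 on day 0, 753, 573 and 689 on day 1 and 719, 731 and 689 on day 3. All mice of day 3 were above those of day 0, and the change of 0.36 ± 0.14 (adjusted p = 0.0712) was called after median centring. Gnl3 (nucleostemin), a nucleolar GTPase, had 2977, 3844 and 2825 on day 0, 3501, 4042 and 3107 on day 1 and 2699, 2725 and 2573 on day 3. Its mice of day 3 lay below all others, as for Nop58. The change of −0.41 ± 0.14 for day 3 against day 1 was not called (adjusted p = 0.0701), but was without day 0 replicate 2 or day 1 replicate 3 (the lower adjusted p being 0.0264).

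The remaining large subunit genes were not called either. Rrs1, which helps to bring the small ribosomal RNA of the large subunit into the particle, changed by −0.02 ± 0.14 on day 1 and 0.13 ± 0.14 on day 3 against day 0. Nip7, a pre-ribosomal RNA-binding protein, changed by 0.14 ± 0.11 and −0.04 ± 0.11. Ftsj3, a methyltransferase of ribosomal RNA, changed by 0.02 ± 0.13 and −0.23 ± 0.13, and Ddx21, an RNA helicase of the nucleolus, by −0.06 ± 0.12 and −0.16 ± 0.12. None of the 30 genes changed 2-fold in any comparison.

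The mice of a day also differed among themselves. On day 0, replicate 2 was the highest mouse for 13 of the 30 genes, among them Nop58, Nop56, Nop10, Fbl, Ncl and Gnl3, and replicate 1 for 14 others. On day 1, replicate 2 was the highest for Nop58, Nop56, Nop10, Ncl and Gnl3, while replicate 3 was the highest for Myc, Nolc1 and Wdr43. Replicate 2 of day 0 also had the highest mean level of the neutrophil markers on that day, 0.51 above the mean of day 0 on the log2 scale, and of the T cell markers, at 0.14. The part of these cells in the differences between mice was not tested.

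Other genes of the MYC network changed too, Mxd1 by the most. Of 12 measured genes besides Myc, 2 were called higher and 2 lower for day 1 against day 0. For day 3, 3 were higher and 1 lower against day 0, and 1 higher and 2 lower against day 1. The shares of all genes, higher and lower, were 10.7% and 17.9%, 13.6% and 12.5%, and 9.66% and 4.54% in that order. Mxd1, a MAX partner that represses E-box genes, had signals of 716, 835 and 819 on day 0, 7914, 5075 and 5583 on day 1 and 1829, 1992 and 2019 on day 3. The days did not overlap. Its change was 2.95 ± 0.16 for day 1 against day 0 (adjusted p = 3.12e-07), 1.30 ± 0.16 for day 3 against day 0 (adjusted p = 0.000139) and −1.64 ± 0.16 for day 3 against day 1 (adjusted p = 0.000106). The neutrophil marker sums had the same order of days, and their part in the Mxd1 values was not tested.

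Its relatives differed. Mxi1 was higher by 0.44 ± 0.14 on day 1 (adjusted p = 0.0388) and by 0.74 ± 0.14 on day 3 against day 0 (adjusted p = 0.00318). The day 1 call was lost without day 0 replicate 1 or 3, day 1 replicate 1 or 2 or day 3 replicate 1 or 3 (adjusted p of 0.0551 to 0.147). Mxd3 was higher on day 3 against day 0, by 1.01 ± 0.20 (adjusted p = 0.00352). Mxd4 was lower on both days, by −0.70 ± 0.11 on day 1 (adjusted p = 0.00131) and −0.49 ± 0.11 on day 3 (adjusted p = 0.00884), against day 0; both calls were lost when its probe sets were averaged (adjusted p of 0.0529 and 0.658).

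Mycn, the MYC paralog, had 112, 183 and 161 on day 0, 58.8, 70.5 and 121 on day 1 and 99.1, 66.2 and 86.8 on day 3. Day 1 and day 0 overlapped in 1 mouse, and the change of −0.91 ± 0.30 (adjusted p = 0.0432) was lost with median centring or quantile normalization and without any 1 of 6 mice (day 0 replicates 2 and 3, day 1 replicates 1 and 2, day 3 replicates 1 and 3; adjusted p of 0.0553 to 0.155). Max, the partner of all of them, was lower by −0.61 ± 0.13 for day 3 against day 1 (adjusted p = 0.0114), which was lost without day 3 replicate 2 (adjusted p = 0.0599). Mnt, Mga, Mlx, Mlxip, Zbtb17 and the ubiquitin ligase subunit gene Fbxw7 were not called in any comparison. Mycl was not called present on all mice of any day.

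**Figure D4:**
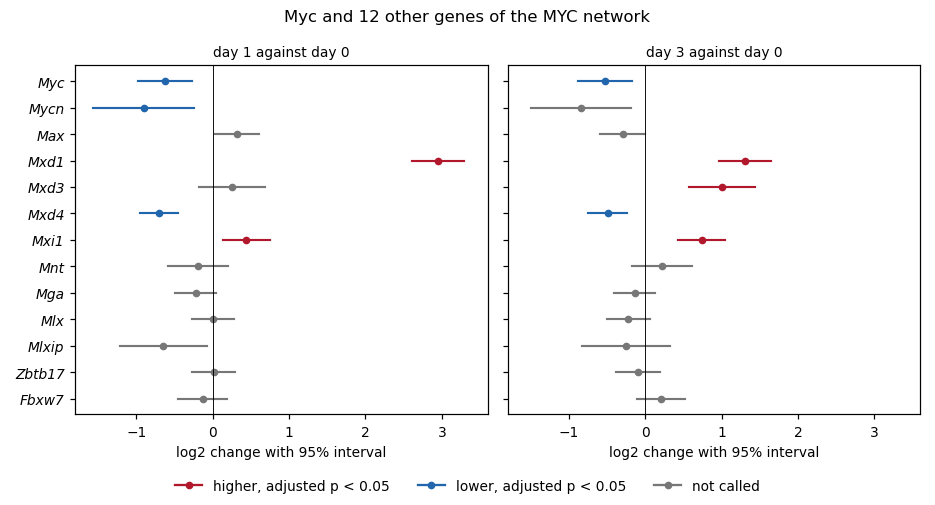
Log2 changes (dots) with 95% intervals (lines) of Myc and 12 other genes of the MYC network for day 1 against day 0 and day 3 against day 0, from limma with 3 mice per day. Mxd1 is farthest to the right on both days, at 2.95 and 1.30, while Myc and Mxd4 are to the left on both.

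The wider ribosome biogenesis genes, 126 in 4 lists of which 121 were tested, had few calls in both directions. For day 1 against day 0, 7 (5.79%) were called higher and 4 (3.31%) lower, with a median of −0.03. Of all genes, 10.7% were higher and 17.9% lower. For day 3 against day 0, 3 (2.48%) were higher and 8 (6.61%) lower, with a median of −0.11. Here 13.6% of all genes were higher and 12.5% lower. For day 3 against day 1, 0 were higher and 3 (2.48%) lower, with a median of −0.08, against 9.66% and 4.54%. Median centring gave 16 higher and 0 lower for day 1 and 5 higher and 7 lower for day 3. For day 3 against day 1 it gave 0 higher and 8 lower. With that centring the split over all genes was 1809 higher and 1118 lower for day 1 and 1736 and 1261 for day 3. It was 698 and 752 for day 3 against day 1. Pno1, an assembly factor of the small subunit, was higher by 0.68 ± 0.13 on day 1 against day 0 (adjusted p = 0.00328). Eif6, which keeps the large subunit from joining too early, was higher by 0.70 ± 0.13 on day 1 (adjusted p = 0.00261), a call that was lost when its probe sets were averaged. Sbds, which helps to release Eif6 from the large subunit, was lower by −0.68 ± 0.13 on day 3 against day 0 (adjusted p = 0.00357).

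By role, 4 of 45 other small subunit genes were called higher and 2 lower on day 1 against day 0, and 1 higher and 3 lower on day 3. Of 52 other large subunit genes, 3 were higher and 1 lower on day 1, and 1 higher and 4 lower on day 3. Of 11 other RNA polymerase I genes, 1 was lower on each day, and of 13 genes of the RNA exosome, which trims precursor RNA, 1 was higher on day 3. These counts stand against the shares of all genes given above and are no test of the lists.

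The cytosolic ribosomal proteins are the proteins of the finished ribosome. Of 77 genes, 41 were tested, since many have no probe set with 1 symbol. On day 1 against day 0, 0 were called higher and 0 lower by limma (1 and 3 at an unadjusted p under 0.05), with a median of −0.08. On day 3, 11 (26.8%) were lower and 0 higher, with a median of −0.25. Over all genes, 17.9% were called lower on day 1 and 12.5% on day 3. In 34 of the 41, all mice of day 3 lay below all mice of day 0, which 24.6% of all genes did. Rps27 had 929, 1453 and 1089 on day 0, 626, 1004 and 730 on day 1 and 466, 725 and 437 on day 3, with a change of −1.11 ± 0.24 for day 3 against day 0 (adjusted p = 0.00564). Rpl12 changed by −1.06 ± 0.21 in the same comparison (adjusted p = 0.0034). Under median centring 3 of the 41 were lower on day 3 and under quantile normalization 4, so the count of 11 depends on the scaling of the arrays. Ribosomal protein genes have many near-identical copies, and probe sets may read several of them.

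Other genes known as MYC targets, outside ribosome production, rose and fell as follows. Of 38 measured, 11 (28.9%) were called higher and 2 (5.26%) lower for day 1 against day 0, with a median of 0.13. For day 3 against day 0, 7 (18.4%) were higher and 3 (7.89%) lower, with a median of 0.14. Over all genes, 10.7% were higher and 17.9% lower on day 1, and 13.6% higher and 12.5% lower on day 3. These counts are no test of the list. Eif4ebp1, a repressor of cap-dependent translation, was higher by 1.27 ± 0.14 on day 1 (adjusted p = 8.88e-05) and 1.55 ± 0.14 on day 3 (adjusted p = 2.01e-05). Ldha, lactate dehydrogenase A, was higher by 0.88 ± 0.13 and 0.73 ± 0.13, and Nme1, a nucleoside diphosphate kinase, by 0.79 ± 0.12 and 0.53 ± 0.12, all called. Cdc25a, a phosphatase of the cell cycle, was lower by −0.76 ± 0.15 on day 1 (adjusted p = 0.00497), a call lost when its probe sets were averaged.

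Genes of DNA replication and mitosis were mostly higher on day 3. Of 26 measured, 3 were called higher and 2 lower for day 1 against day 0, with a median of −0.10. For day 3 against day 0, 19 (73.1%) were called higher and 0 lower, with a median of 1.44. Over all genes, 10.7% were called higher on day 1 and 13.6% on day 3. Cdk1, the kinase of entry into mitosis, had 355, 307 and 202 on day 0, 402, 439 and 246 on day 1 and 1432, 1443 and 1409 on day 3, with a change of 2.35 ± 0.24 for day 3 against day 0 (adjusted p = 4.24e-05). Bub1, a checkpoint kinase, was higher by 2.15 ± 0.22 and Birc5 (survivin) by 1.99 ± 0.13 in that comparison. Gins2, part of the replicative helicase, was higher already on day 1, by 1.53 ± 0.25 (adjusted p = 0.00122). The mean log2 level of the 26 genes lay between 1.14 and 1.19 above the mean of day 0 in the 3 mice of day 3, while that of the 30 genes lay between −0.07 and −0.02 in the same mice. Against day 0 the 30 genes were at 0.06 to 0.14 in the mice of day 1.

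**Figure D5:**
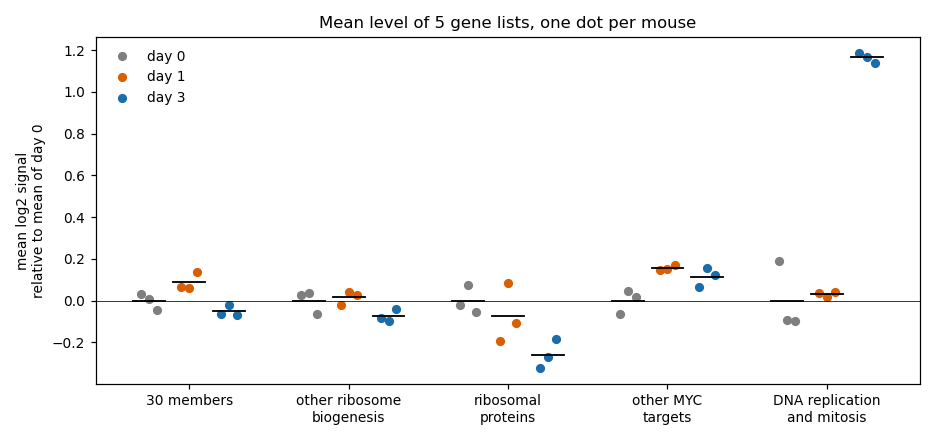
Mean log2 signal of 5 gene lists in each mouse (dots), relative to the mean of day 0, with the mean of each day (lines). The DNA replication and mitosis genes stand between 1.14 and 1.19 on day 3, the 30 genes stay between −0.07 and 0.14 over all 9 mice, and the ribosomal proteins lie between −0.32 and −0.19 on day 3.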

How the data were processed

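RNA of SVFs was measured on 9 Affymetrix Mouse430_2 arrays. The authors had summarized the probe intensities of each array with MAS5, per the labels, and scaled them. The deposited files hold this intensity as a linear signal, with a detection call and a detection p-value for each of 45101 probe sets. The deposited value table of the series matches these signals within 5.0e-04 percent. Left out were 64 control probe sets, 932 with several symbols and 9160 without any. Arrays give no read depth, and 3 mice per day limit the precision.

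Log2 signals (nothing added) entered limma 3.58.1 (eBayes with variance trend) in R 4.3.3, all 9 arrays with day as factor, leaving 6 residual degrees of freedom. P-values are two-sided, with Benjamini-Hochberg adjustment over the genes tested. A gene was its brightest probe set among those with a present call for all 3 mice of some day. The fit was tested on simulated data. The methods name a repeated-measurements ANOVA, but each mouse was used once, so no block entered. The ANOVA alternatives were therefore ordinary F tests over days for each gene, and not the repeated-measurements form. In the adjusted version, a t-test of the 2 days compared also had to be under 0.05 after adjustment. The 32 genes, the other lists and the tests were chosen with earlier results of these data known. Named genes are the 32, the whole MYC network, and up to 4 called genes with the largest change from each other list. The marker lists not described above were called higher and lower, for day 1 and then day 3 against day 0, in 8 and 1, then 8 and 0 of 13 monocyte and macrophage genes, 0 and 3, then 1 and 4 of 10 fibroblast genes, 0 and 6, then 0 and 4 of 9 endothelial genes, 0 and 2, then 0 and 4 of 5 adipocyte genes, 0 and 0, then 0 and 1 of 1 epithelial gene and 0 and 0 on both days of 2 erythroid genes. Alternatives are given in the closing section. Promoters came from RefSeq (GRCm38.p6). Python 3.11.15, pandas 2.3.3 and matplotlib 3.10.9 were used for tables and plots.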

Additional observations from a re-analysis of the deposited data

Results flagged for a closer look

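For 4 of the 30 genes the change on day 3 differed from the change on day 1, as tested directly by the contrast of day 3 with day 1 in limma. The difference (change on day 3 minus change on day 1) was −0.81 for Nop58 (adjusted p = 0.0105), −0.48 for Nop56 (adjusted p = 0.0257), −0.43 for Ncl (adjusted p = 0.0275) and −0.52 for Nop10 (adjusted p = 0.0373). Over all genes, 14.2% were called in this contrast, 4.54% lower and 9.66% higher. In each of the 4 genes all 3 mice of day 3 lay below all 3 mice of day 1, which 11.5% of all genes did. Each of the 4 calls was lost without day 3 replicate 1, and the adjusted ANOVA called none of them. The mean of day 0 drops out of this difference, which is the change for day 3 against day 1 given above. Groups of 3 mice were not tested for single outlying mice.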

How the results depend on the processing

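Of 90 results (30 genes in 3 comparisons), no called change turned its sign under any alternative, 93 values over all alternatives lost a call and 26 gained one. None of the 30 genes changed 2-fold, so both alternatives with a 2-fold limit had to lose every call. Those losses are part of the 93. The 2-fold limit alone kept the reported fit, so no sign could turn under it. Called higher for day 1 against day 0 were 2 genes with quantile normalization and 7 with median centring, against 1 as reported. The count was 0 with a 2-fold limit or with the unadjusted ordinary ANOVA and its 2-fold limit. Called lower were 0 with the 2-fold limit, the adjusted ANOVA or the unadjusted one with its limit, and 3 when probe sets were fitted one by one, against 1. For day 3 against day 0, 2 genes were higher with quantile normalization, median centring or only the 6 arrays compared, and 0 without probe sets that may share sequence or with either 2-fold limit, against 1. Called lower were 3 without the variance trend, 1 with the adjusted ANOVA (Nop56) and 0 with either 2-fold limit, against 6. For day 3 against day 1, 2 were lower with no filter or without the variance trend, 1 with the adjusted ANOVA and 0 with either 2-fold limit, against 4. The 1 gene of that ANOVA was Fbl, and none of the 4 reported genes was called by it. The ANOVA with the 2-fold limit and the fit of single probe sets were chosen after seeing the data.

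Leaving out each array gave 1 to 4 genes higher and 0 to 2 lower for day 1 against day 0, 1 higher and 1 to 6 lower for day 3 against day 0, and 0 to 1 higher and 0 to 5 lower for day 3 against day 1. A fit without 1 array has fewer samples. With the replicate number as a block, 2 genes were higher and 1 lower for day 1 against day 0, 1 higher and 5 lower for day 3 against day 0, and 0 higher and 5 lower for day 3 against day 1. No source pairs the mice by replicate number. Deviations of same-numbered arrays correlated at −0.15 to 0.33, and those of differently numbered arrays at −0.40 to 0.31.

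Over all genes, 1268 were higher and 2110 lower on day 1, 1600 and 1474 on day 3 against day 0, and 1140 and 536 for day 3 against day 1. A 2-fold limit left 430 and 396, 524 and 410, and 245 and 189. The adjusted ANOVA gave 795 and 922 on day 1, 744 lower on day 3, and 656 and 226 for day 3 against day 1, and the unadjusted one with its limit 424 and 328, 522 and 338, and 245 and 200. Only the 6 arrays compared gave 1402 lower on day 1. Leaving out single arrays gave 806 to 1685 and 1000 to 2863, 1058 to 1807 and 831 to 1811, and 474 to 1823 and 253 to 1000.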
